A study of Mus musculus with 9 samples.

Results

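The 54 genes described here encode the ligands, receptors, secreted inhibitors and common targets of the Wnt pathway, and their mRNA was followed in the mandible of mice lacking, by label, the inhibitory Fc receptor FcgRIIB. They were picked by symbol alone from the 27179 genes of the table: every Wnt, Frizzled (Fzd), secreted Frizzled-related protein (Sfrp), Dickkopf (Dkk) and R-spondin (Rspo) gene, together with Notum, Axin2, Lef1, Tcf7, Wif1, Frzb, Lrp5, Lrp6, Nkd1, Nkd2, Lgr4, Lgr5 and Lgr6. RNA-seq was carried out on whole mandibles, teeth included, of 5 WT mice and of 4 mice labelled FcgRIIB-/-, with 1 library for each mouse. The labels give strain C57BL/6 and an age of 6 months for every mouse, the design text speaks of male mice without stating the sex of the WT controls separately, and no other allele, agent or treatment is named for either group. FcgRIIB is the receptor through which immune complexes restrain B cells and myeloid cells, and mice without it are used as a model of lupus, so the comparison asked how loss of the receptor altered the mandibular transcriptome. The libraries held 21453880 to 28991631 counts, and p-values measure the spread between mice.

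Wnt proteins are secreted, lipid-modified signals that bind a Frizzled receptor together with an Lrp5 or Lrp6 co-receptor, whereupon beta-catenin escapes destruction and switches on genes with Lef1 and Tcf7. R-spondins acting through Lgr receptors raise the number of Frizzled molecules at the cell surface, whereas the Sfrp proteins, Wif1 and the Dkk proteins act outside the cell against the ligand or the co-receptor, and Notum strips the lipid from the ligand. In the skeleton the pathway is best known for promoting bone formation by osteoblasts, and in the tooth for initiating and shaping the crown and root.

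Fcgr2b, the gene that the label says is deleted, was measured first. Its level in CPM, the count scaled to a library of standard size, was 20.9, 38.3, 17.0, 23.1 and 20.7 in WT replicates 1 to 5 and 26.5, 26.0, 26.6 and 32.1 in labelled FcgRIIB-/- replicates 1 to 4, with a log2 difference of 0.21 (SE 0.20, adjusted p = 0.442). Reads of the gene were thus not lower under the knockout label, and because exon-level counts were not analysed here, reads from undeleted exons cannot be told apart from an intact gene. Without WT replicate 2 the log2 difference was 0.46 (adjusted p = 0.0131, higher in the labelled mice). The second group is therefore called the labelled FcgRIIB-/- mice throughout, and every direction below is theirs relative to WT. In bulk tissue, fewer cells of a type and less RNA per cell cannot be told apart.

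Wnt3a, Wnt4, Wnt6, Wnt7a and Wnt10a rose, while the secreted inhibitors Sfrp1, Sfrp2, Dkk3 and Wif1 and the receptors Fzd1, Fzd4 and Lrp5 were among the genes that fell. Of the 54 genes, 48 passed the filter on low counts, and of these 8 were higher and 13 were lower in the labelled mice at an adjusted p under 0.05 by the edgeR quasi-likelihood test. These are 16.7% and 27.1% of those tested, beside 14.0% higher and 19.3% lower among all 16329 genes tested. The median log2 difference was -0.14 over the 48 genes and 0.01 over all genes tested. With scaling by total counts only, 1309 genes were higher and 3781 lower in place of 2289 and 3144 over all genes tested, and 7 and 15 in place of 8 and 13 among the Wnt genes. The CPM ranges of the groups did not overlap for 17 of the 48, against 29.6% of all genes tested: 8 lay wholly above WT, beside 10.7% of all genes both above and past the threshold, and 9 lay wholly below, beside 16.4%. Of the 21 called genes, 16 were called in the same direction in each of 16 other fits, which changed the scaling, filter, tool or block or left out 1 mouse, and the exceptions (Wnt5b, Wnt16, Lrp6, Rspo3 and Dkk2) are given where they are described.

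**Figure D1:**
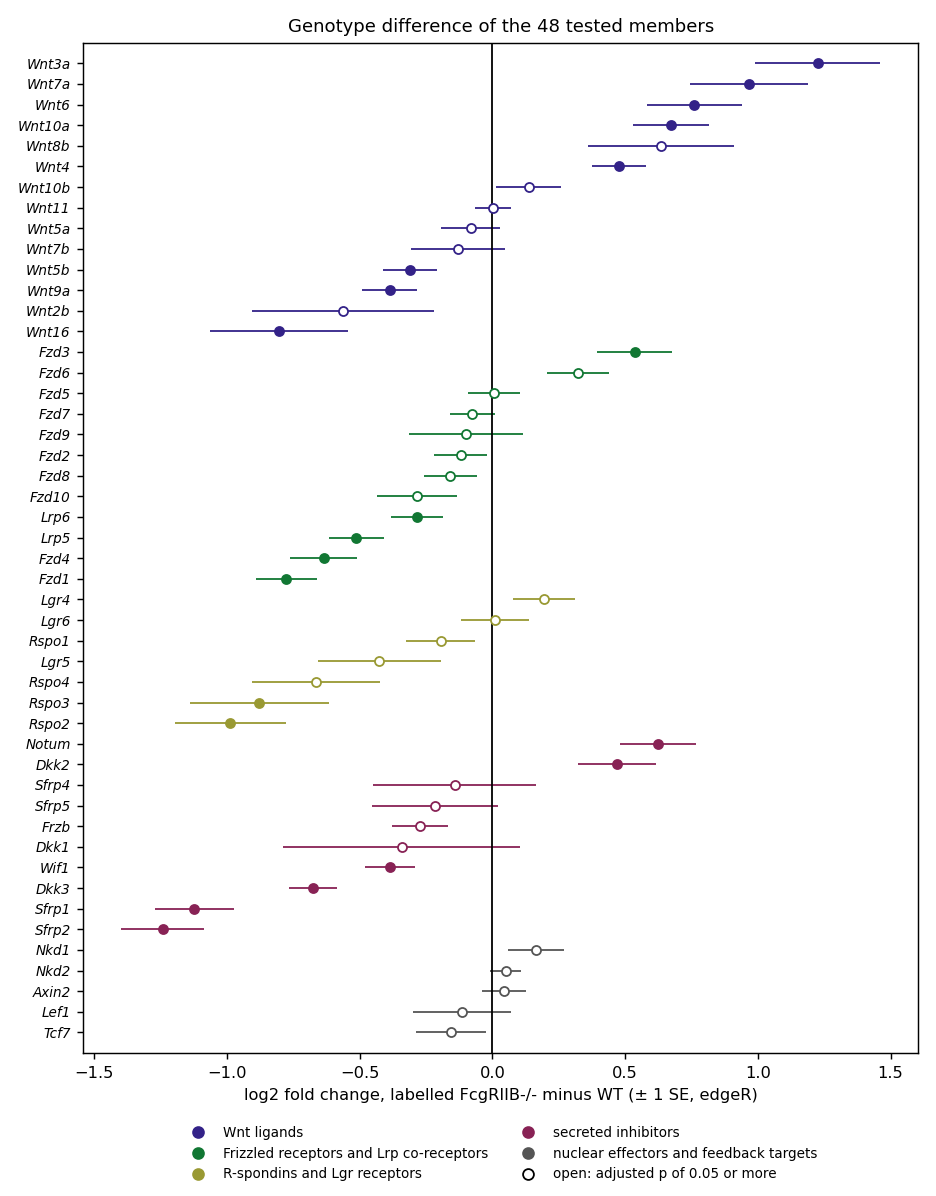
Log2 difference between labelled FcgRIIB-/- and WT mice (x axis) for the 48 tested genes, grouped by role, with bars of ± 1 SE from edgeR. Filled points passed an adjusted p of 0.05: 5 ligands, 1 receptor and 2 inhibitors lie to the right of 0, and 3 ligands, 4 receptors or co-receptors, 2 R-spondins and 4 inhibitors to the left.

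Of the 14 tested ligands 5 (35.7%) were higher, 3 (21.4%) were lower and 6 did not pass the test. Over all genes tested 14.0% were higher and 19.3% lower, so the share of lower ligands was near that of all genes. Wnt3a, Wnt7a, Wnt6, Wnt10a and Wnt4 were the higher ligands, with no overlap between labelled and WT mice for any of them. Over all genes tested, 10.7% were higher past the threshold without overlap. Wnt3a (gene 22416), a ligand that classically stabilizes beta-catenin, showed the widest difference of all 48 genes in the upward direction. Its level was 7.08 ± 2.31 (SD, n = 5) CPM, made up of 9.60, 5.46, 8.40, 8.0 and 3.94, in WT and 16.6 ± 3.11 (SD, n = 4) CPM, made up of 13.5, 20.6, 17.5 and 15.0, in the labelled mice, with a log2 difference of 1.23 (SE 0.24, adjusted p = 0.00367). The lowest labelled mouse, replicate 1, was above the highest WT mouse, also replicate 1, and the WT mice themselves spanned a wide range with replicate 5 lowest. The study placed Wnt3a and Notum on its qPCR primer list, so both were chosen by the study and their direction here is not independent evidence.

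Wnt7a, which patterns the dorsal side of the limb, stood at 8.84, 8.59, 9.68, 8.33 and 3.75 CPM in WT and at 14.5, 15.9, 13.8 and 17.2 CPM in the labelled mice, with a log2 difference of 0.97 (SE 0.22, adjusted p = 0.00836). Wnt6 was measured at 34.8, 38.8, 35.5, 34.5 and 20.8 CPM in WT and 46.8, 54.4, 48.9 and 73.1 CPM in the labelled mice, with a log2 difference of 0.76 (SE 0.18, adjusted p = 0.00949). For both ligands 4 WT mice sat close together, WT replicate 5 fell far beneath them, and labelled replicate 4 was the highest of the 9 mice. Wnt10a, the ligand whose mutations are a frequent cause of missing teeth in people, was at 53.3, 57.8, 57.6, 50.3 and 35.9 CPM in WT and 75.1, 80.1, 70.6 and 99.4 CPM in the labelled mice, with a log2 difference of 0.67 (SE 0.14, adjusted p = 0.00573). Wnt4, needed for kidney and female reproductive tract development, was at 94.9, 70.0, 95.4, 81.4 and 84.1 CPM in WT and 108, 117, 112 and 137 CPM in the labelled mice, with a log2 difference of 0.48 (SE 0.10, adjusted p = 0.00621). Labelled replicate 4 was again the highest mouse for Wnt10a and Wnt4, and WT replicate 5 was the lowest for Wnt10a, whereas WT replicate 2 was the lowest for Wnt4. Without WT replicate 5 the number of higher genes among the 54 remained 8 and the number of lower genes was 11. Over all genes tested, 2155 were higher and 2570 lower without that mouse, in place of 2289 and 3144.

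The 3 lower ligands changed less evenly, and their ranges overlapped between groups. Wnt9a, which helps to specify joints, was at 22.9, 22.6, 21.6, 22.6 and 19.4 CPM in WT and 20.4, 15.0, 15.4 and 16.0 CPM in the labelled mice, with a log2 difference of -0.39 (SE 0.10, adjusted p = 0.0170). Labelled replicate 1 lay inside the WT range and the other 3 labelled mice lay below it. Wnt5b, a ligand of the beta-catenin-independent branch, was at 32.3, 33.3, 37.9, 33.7 and 37.5 CPM in WT and 29.0, 24.4, 25.5 and 33.9 CPM in the labelled mice, with a log2 difference of -0.31 (SE 0.10, adjusted p = 0.0380). Labelled replicate 4 for Wnt5b was as high as the middle of the WT range. Wnt16, a determinant of cortical bone thickness, was at 3.84, 2.21, 4.55, 2.57 and 4.92 CPM in WT and 2.31, 1.80, 1.78 and 2.38 CPM in the labelled mice, with a log2 difference of -0.80 (SE 0.26, adjusted p = 0.0365). Labelled replicates 1 and 4 lay within the WT range for Wnt16 and the other labelled mice under it. The Wnt5b call was lost without any one of WT replicates 2 to 5 or labelled replicates 1 to 3 (adjusted p from 0.0547 to 0.0996), and the Wnt16 call without any one of WT replicates 1, 3 and 5 or labelled replicates 1 to 4 (0.0527 to 0.0884). Wnt16 also missed the threshold by limma-voom, with an adjusted p of 0.0624.

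Among the ligands that did not pass the test, Wnt5a, which drives cell movement and outgrowth, averaged 130.5 ± 20.9 (SD, n = 5) CPM across WT mice against 123 ± 5.39 (SD, n = 4) CPM across the labelled mice, a log2 difference of -0.08 (SE 0.11). Wnt10b and Wnt7b, which favour bone formation, differed by 0.14 (SE 0.12) and -0.13 (SE 0.18), and Wnt11 by 0.00 (SE 0.07). For Wnt7b the 4 labelled mice lay between 37.2 and 37.5 CPM while the WT mice ran from 25.0 to 55.5 CPM. Wnt2b differed by -0.56 (adjusted p = 0.229) and Wnt8b, near the bottom of the measurable range at 0.386 ± 0.0671 (SD, n = 5) CPM in WT, by 0.63 (adjusted p = 0.0990). Wnt1, Wnt2, Wnt3, Wnt8a and Wnt9b did not pass the filter on low counts, each with a group mean of at most 0.519 CPM, and Wnt8a had no count in any labelled mouse.

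**Figure D2:**
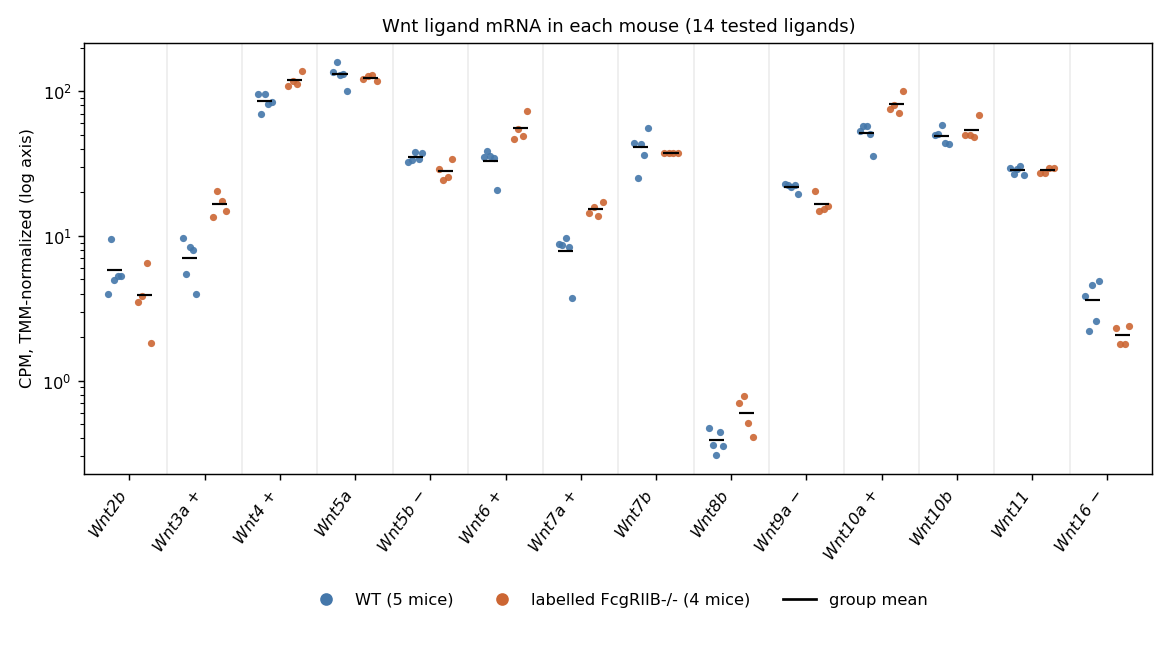
Level of each tested Wnt ligand in every mouse, in CPM on a log axis, with black bars for group means; + and − after a name mark genes past an adjusted p of 0.05 in either direction. The orange points of Wnt3a, Wnt4, Wnt6, Wnt7a and Wnt10a all sit above the blue ones, and the 4 labelled mice for Wnt7b lie almost on one line.

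Levels of different ligands were compared as CPM per kilobase of exon. In WT the order began with Wnt10a at 20.7 ± 3.65, Wnt4 at 20.3 ± 2.51 and Wnt5a at 18.6 ± 2.97 CPM per kb (mean ± SD, n = 5), neighbours that differed by less than 1 SD. In the labelled mice Wnt10a at 32.9 ± 5.13, Wnt4 at 28.3 ± 3.06 and Wnt6 at 26.9 ± 5.79 CPM per kb (n = 4) led, each apart from the next by less than the larger SD, and Wnt5a at 17.5 ± 0.767 was at rank 4. Wnt3a stood at rank 10 with 2.56 ± 0.838 CPM per kb in WT and at rank 9 with 6.01 ± 1.13 in the labelled mice, far under the leading ligands in either group. Summed over the 19 ligands, the level ran from 117 to 146 CPM per kb in WT and from 155 to 191 in the labelled mice, without overlap. Wnt10a, Wnt4 and Wnt6, the last at 15.9 ± 3.38 in WT, were the largest parts of this sum in the labelled mice. Of the 14 tested ligands 5 were higher and 3 lower, so the sum does not describe each of them.

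The ligand genes include neighbours on the chromosome, which were examined for moving together. Wnt6 (chr1:74754342-74785322) and Wnt10a (chr1:74792019-74804176), both on the plus strand and 6696 bases apart in RefSeq on GRCm38.p6, were both higher. Wnt3a (chr11:59248036-59290751, minus strand) and Wnt9a (chr11:59306849-59333552, plus strand) lie head to head with 16097 bases between them, and the one was higher while the other was lower. The 250 bases before an annotated start of each gene of this opposing pair are given here from the RefSeq promoter table, 5′ to 3′ along the gene's own strand, with CG dinucleotides in capitals; the windows are chr11:59290752-59291001 for Wnt3a and chr11:59306680-59306929 for Wnt9a.
Wnt3a: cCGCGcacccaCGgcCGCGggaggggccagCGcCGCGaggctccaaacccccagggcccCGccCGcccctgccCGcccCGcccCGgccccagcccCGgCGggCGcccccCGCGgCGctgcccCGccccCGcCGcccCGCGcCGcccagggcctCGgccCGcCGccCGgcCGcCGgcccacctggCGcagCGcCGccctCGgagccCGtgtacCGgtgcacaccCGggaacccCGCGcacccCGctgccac
Wnt9a: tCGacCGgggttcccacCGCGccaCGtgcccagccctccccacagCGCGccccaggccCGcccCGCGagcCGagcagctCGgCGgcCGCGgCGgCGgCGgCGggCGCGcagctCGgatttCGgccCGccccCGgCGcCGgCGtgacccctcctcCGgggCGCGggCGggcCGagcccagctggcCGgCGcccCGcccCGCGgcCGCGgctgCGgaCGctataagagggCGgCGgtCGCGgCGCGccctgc
The window of Wnt3a held 41 CG dinucleotides at 87.6% G and C and that of Wnt9a 48 at 84.4%, beside medians of 6 and 52.4% over 32851 mouse promoters. Both are thus at the CG-rich end, with fewer CG dinucleotides in 98.9% and 99.8% of promoters, although their mRNAs moved in opposite directions.

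Exact matches on either strand to the motifs CTTTGAT and CTTTGTT, cores of the TCF/LEF element through which beta-catenin acts, were counted in the same 250 bases. Of the 54 genes, 36 had a RefSeq promoter, with 43 windows in all, and 4 windows (9.30%) held a core, beside 8.06% of all promoters. Matches lay before Wnt5b, Dkk1, Fzd7 and Wnt11, of which Wnt5b alone changed, and it fell. The Wnt5b stretch is shown as the one match before a called gene (chr6:119449427-119449481, minus strand, core in capitals 71 to 65 bases before 1 of 3 annotated starts). That start lies within the gene, and the windows before the other 2 starts held no core.
Wnt5b: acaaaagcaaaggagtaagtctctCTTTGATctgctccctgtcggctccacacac
No core was found before Wnt3a, Wnt4, Wnt6 or Wnt7a, the higher ligands with a window, and a match or its absence describes these letters only.

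Of 12 tested Frizzled and Lrp genes 4 (33.3%) were lower, 1 (8.33%) was higher and 7 did not pass, beside 19.3% lower and 14.0% higher over all genes, with a median log2 difference of -0.14. Fzd1, by level the leading Frizzled at 44.1 ± 3.16 CPM per kb in WT, was at 192, 198, 163, 185 and 189 CPM in WT and 110.0, 109, 129.6 and 84.1 CPM in the labelled mice, with a log2 difference of -0.78 (SE 0.11, adjusted p = 0.00113). Every labelled mouse lay below every WT mouse, with replicate 4 lowest. Fzd4, also the receptor for norrin in blood vessels, was at 20.0, 16.6, 21.4, 22.4 and 26.3 CPM in WT and 14.1, 12.8, 15.2 and 12.8 CPM in the labelled mice, with a log2 difference of -0.64 (SE 0.13, adjusted p = 0.00413). Fzd3, a receptor with a known part in axon guidance, went the other way, from 33.3, 35.5, 35.0, 37.4 and 24.5 CPM in WT to 41.5, 57.2, 53.9 and 39.8 CPM in the labelled mice, with a log2 difference of 0.54 (SE 0.14, adjusted p = 0.0155). Neither gene had overlapping ranges, and WT replicate 5 was the highest of the WT mice for Fzd4 and the lowest for Fzd3.

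Both co-receptors were lower, and the call held in all 16 other fits for Lrp5 but in only 6 of them for Lrp6. Lrp5, whose loss of function lowers bone mass in people and mice, was at 91.1, 75.8, 86.6, 87.7 and 100.2 CPM in WT and 72.3, 65.4, 54.9 and 54.8 CPM in the labelled mice, with a log2 difference of -0.51 (SE 0.10, adjusted p = 0.00446). Lrp6, its close relative, was at 109, 113, 116, 114 and 105 CPM in WT and 94.7, 100.4, 100.3 and 71.3 CPM in the labelled mice, with a log2 difference of -0.28 (SE 0.10, adjusted p = 0.0455). The ranges did not overlap for either gene, but for Lrp6 labelled replicates 1 to 3 lay just under the WT mice and replicate 4 stood apart from them. Without that mouse the log2 difference of Lrp6 was -0.18 (adjusted p = 0.0476), and the call was lost without any one WT mouse or labelled replicate 1 (adjusted p from 0.0674 to 0.106) and under RLE scaling (0.0572), with no low-count filter (0.0597) and with only genes of at least 50 mean counts (0.0509).

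The remaining receptors did not pass the test. Fzd6, which acts in planar cell polarity of skin and hair, came nearest with a log2 difference of 0.32 (adjusted p = 0.0568), and it was called without WT replicate 3 (0.0257) or labelled replicate 1 (0.0429), and with all mice under RLE scaling (0.0417), with only genes of at least 50 mean counts (0.0424) and by DESeq2 (0.0298). Fzd2, Fzd5, Fzd7, Fzd8, Fzd9 and Fzd10 had log2 differences from -0.28 for Fzd10 to 0.01 for Fzd5, the last of which was -0.070 with scaling by total counts only. Over the 12 receptor genes the summed level was 127 to 136 CPM per kb in WT and 93.1 to 118 in the labelled mice, without overlap. Fzd1 was the largest part of this sum, at 44.1 ± 3.16 CPM per kb in WT and 25.8 ± 4.44 in the labelled mice. Of the 12 genes, 7 did not pass the test, so the sum does not describe each of them.

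Of the 7 tested R-spondin and Lgr genes 2 (28.6%), both R-spondins, were lower and none was higher. Over all genes tested 19.3% were lower and 14.0% higher. Rspo2, required for limb and craniofacial outgrowth, was at 7.46, 8.67, 6.55, 8.48 and 8.39 CPM in WT and 3.57, 4.76, 5.21 and 2.38 CPM in the labelled mice, with a log2 difference of -0.99 (SE 0.21, adjusted p = 0.00573). The highest labelled mouse, replicate 3, remained below the lowest WT mouse, also replicate 3. Rspo3, known for its part in blood vessel and placental development, was at 1.45, 2.93, 2.08, 2.72 and 1.87 CPM in WT and 1.47, 0.924, 0.974 and 1.42 CPM in the labelled mice, with a log2 difference of -0.88 (SE 0.26, adjusted p = 0.0259). Labelled replicate 1 overlapped WT replicate 1 for Rspo3, and the call was lost without WT replicates 2 or 4 or labelled replicates 2 or 3, one at a time (adjusted p from 0.0555 to 0.0697). Rspo4, which is needed for nails, was the most abundant R-spondin per kb and did not pass the test at -0.66 (adjusted p = 0.0564); it was called without WT replicate 2 (0.0448), WT replicate 5 (0.0283) or labelled replicate 1 (0.0192), and with all mice by DESeq2 (0.0229) and with scaling by total counts only (0.0412). Rspo1 (log2 difference -0.19) and the R-spondin receptors Lgr4 (0.19), Lgr5 (-0.43) and Lgr6 (0.01) did not pass the test.

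**Figure D3:**
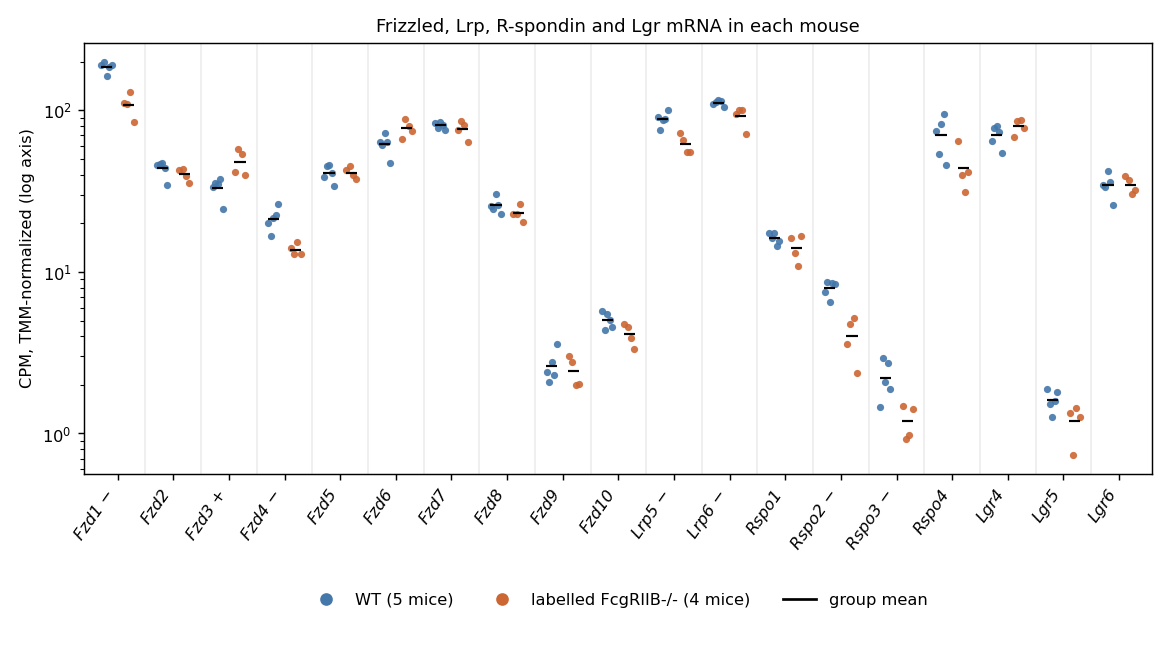
Level of each Frizzled, Lrp, R-spondin and Lgr gene in every mouse, in CPM on a log axis, with black bars for group means; + and − mark genes past an adjusted p of 0.05. Fzd1, Fzd4, Lrp5, Lrp6 and Rspo2 have every labelled mouse below every WT mouse, and Fzd3 the reverse.

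Among the secreted inhibitors, Sfrp2 and Sfrp1 held the widest downward differences of the 48 genes. Of 10 tested inhibitors 4 (40%) were lower, 2 (20%) were higher and 4 did not pass, beside 19.3% lower and 14.0% higher over all genes. The groups did not overlap for any of the 6 called genes, 4 of them lower and 2 higher. Over all genes tested, 16.4% were lower past the threshold without overlap, and 10.7% were higher. Sfrp2 (gene 20319), which binds Wnt ligands in the matrix, was the most abundant of the 54 genes per kb in WT. Its level was 551 ± 57.4 (SD, n = 5) CPM in WT, from 526, 642, 493, 569 and 527. It was at 233 ± 53.8 (SD, n = 4) CPM in the labelled mice, from 288, 251, 233 and 160.2, with a log2 difference of -1.24 (SE 0.16, adjusted p = 0.000575). Sfrp1, a relative that restrains osteoblast survival, was at 103, 138, 95.0, 97.9 and 141 CPM in WT and 55.5, 52.8, 60.5 and 42.0 CPM in the labelled mice, with a log2 difference of -1.12 (SE 0.15, adjusted p = 0.000722). For both genes labelled replicate 4 was the lowest of the 9 mice.

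Dkk3, a divergent Dickkopf that is not thought to act through Lrp5 or Lrp6 as Dkk1 does, was at 279.5, 293, 298, 283 and 361 CPM in WT and 205, 189, 184 and 181 CPM in the labelled mice, with a log2 difference of -0.67 (SE 0.09, adjusted p = 0.000751). Wif1, which sequesters Wnt ligands, was at 488, 631, 488, 498 and 549 CPM in WT and 390.5, 417, 399.6 and 418 CPM in the labelled mice, with a log2 difference of -0.39 (SE 0.09, adjusted p = 0.0108). The labelled mice were closely grouped for these inhibitors, and WT replicate 5 was the highest mouse for Dkk3 and WT replicate 2 for Wif1.

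Notum and Dkk2 rose. Notum was at 10.5, 8.99, 9.64, 8.30 and 6.60 CPM in WT and 12.4, 16.4, 13.3 and 12.3 CPM in the labelled mice, with a log2 difference of 0.62 (SE 0.14, adjusted p = 0.00850). Dkk2, an Lrp5 and Lrp6 ligand, was at 29.1, 34.4, 36.8, 38.1 and 21.4 CPM in WT and 46.1, 41.5, 42.6 and 46.8 CPM in the labelled mice, with a log2 difference of 0.47 (SE 0.15, adjusted p = 0.0308). WT replicate 5 was the lowest mouse for both genes. The Dkk2 call was lost without WT replicate 1 or labelled replicates 1, 3 or 4, one at a time (adjusted p from 0.0509 to 0.0716), and with scaling by total counts only (0.0781).

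Dkk1, the best known blocker of Lrp5 and Lrp6, did not pass the test. WT replicate 5 held 35.5 CPM of Dkk1 against 7.30 to 9.58 CPM in the other WT mice and 8.86 to 14.7 CPM in the labelled mice, and the log2 difference was -0.34 (adjusted p = 0.587) with it and 0.37 (adjusted p = 0.135) without it. Frzb, also named Sfrp3, differed by -0.27 (adjusted p = 0.0691) and was called without WT replicate 1 (0.0221) and with scaling by total counts only (0.0377). Sfrp4 at -0.14 and Sfrp5 at -0.22 did not pass, and the 4 labelled mice spread from 40.2 to 152 CPM for Sfrp4. Dkk4 did not pass the filter on low counts.

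Per kb of exon, Sfrp2, Wif1 and Dkk3 made up 86.3 to 88.5% of the inhibitor mRNA in WT mice and 80.2 to 85.3% in the labelled mice. Sfrp2 led in WT at 275 ± 28.7 CPM per kb, with Wif1 at 231 ± 26.8. In the labelled mice Wif1 led at 177 ± 5.86, with Sfrp2 at 116 ± 26.8. The summed inhibitor level was 624 to 780 CPM per kb in WT and 372 to 440 in the labelled mice. The ranges did not overlap, and these 3 genes made up most of the sum in every mouse, whereas Notum at 6.03 ± 0.845 and Dkk2 at 11.9 ± 0.703 CPM per kb contributed little to it in the labelled mice.

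Of the 5 genes grouped here as feedback targets and nuclear effectors (Axin2, Lef1, Tcf7, Nkd1 and Nkd2) none passed the threshold, higher or lower. Over all genes tested 33.3% passed it. Notum, which rose, was counted with the inhibitors and is not among these 5, so they do not cover every gene that may respond to the pathway. At an unadjusted p under 0.05 none of the 5 passed either by edgeR, and none passed an adjusted p of 0.05 by DESeq2 or limma-voom. Axin2, which is induced by the pathway and dampens it, was at 27.3, 25.3, 24.4, 24.7 and 23.0 CPM in WT and 25.6, 29.0, 22.4 and 25.9 CPM in the labelled mice, with a log2 difference of 0.04 (SE 0.08, adjusted p = 0.718). The difference was negative with scaling by total counts only (-0.033) and without labelled replicate 2 (-0.018). Lef1, a DNA-binding partner of beta-catenin, was at 4.24, 5.58, 4.74, 5.10 and 3.90 CPM in WT and 4.34, 5.41, 4.66 and 2.99 CPM in the labelled mice, with a log2 difference of -0.11 (SE 0.18, adjusted p = 0.666). Tcf7, a second such partner, was at 23.7, 35.4, 24.6, 29.3 and 24.9 CPM in WT and 26.2, 28.2, 22.8 and 21.6 CPM in the labelled mice, with a log2 difference of -0.16 (SE 0.13, adjusted p = 0.379). The groups overlapped for all 3 genes, and the labelled mice lay on either side of the WT medians. Nkd1 and Nkd2, inhibitors of Dishevelled that the pathway induces, differed by 0.16 (SE 0.10) and 0.05 (SE 0.06).

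**Figure D4:**
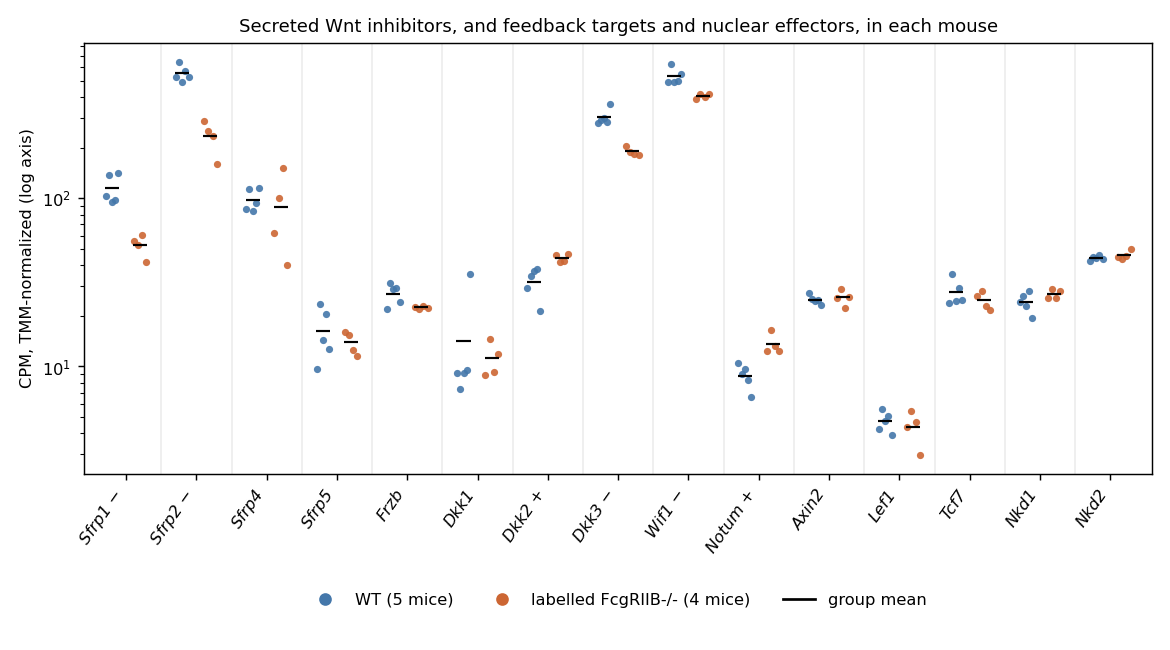
Level of each tested secreted inhibitor (Sfrp1 to Notum) and of the feedback targets and nuclear effectors (Axin2 to Nkd2) in every mouse, in CPM on a log axis, with black bars for group means; + and − mark genes past an adjusted p of 0.05. Sfrp1, Sfrp2, Dkk3 and Wif1 separate downward, Dkk2 and Notum upward, and Axin2, Lef1, Tcf7, Nkd1 and Nkd2 show mixed points.

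A further 71 pathway genes were listed by role, and 70 were tested: 4 were higher and 17 were lower, with a median log2 difference of -0.07. These are 5.71% and 24.3% of those tested, beside the 14.0% and 19.3% of all genes. Without WT replicate 4, labelled replicate 3 or labelled replicate 4, one at a time, only 2 were called higher, as with scaling by total counts only or with no filter. Among 17 co-receptor and planar polarity genes 6 were lower and 1 was higher. The Wnt5a receptor Ror1 fell by 0.85 on the log2 scale (adjusted p = 0.0125) and Celsr3, a polarity cadherin at most 1.56 CPM in any mouse, by 2.29 (adjusted p = 0.00760), while the related Celsr1 rose by 0.75 (adjusted p = 0.00373).

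Of 8 tested further antagonists 3 (37.5%) were lower and none was higher, beside 19.3% lower and 14.0% higher over all genes. Kremen1, a partner of Dkk1, fell by 0.32 on the log2 scale (adjusted p = 0.00871) and Dkkl1, a Dickkopf-like gene, by 2.89 (adjusted p = 0.00240). Dkkl1 rests on few reads, at 1.03 to 3.83 CPM in WT and 0.139 to 0.355 CPM in the labelled mice. Sost, the osteocyte gene for the Lrp5 and Lrp6 inhibitor sclerostin, was at 22.7, 12.3, 13.4, 10.4 and 352 CPM in WT and 6.24, 10.9, 5.08 and 5.63 CPM in the labelled mice, so WT replicate 5 was far above every other mouse. Its log2 difference was -3.56 (adjusted p = 0.0395) with all mice and -1.06 (adjusted p = 0.0233) without WT replicate 5, and the call was lost without any one labelled mouse (adjusted p from 0.0690 to 0.0960) and by limma-voom (0.240).

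Inside the cell, 3 (17.6%) of 17 destruction complex and relay genes were lower and 1 (5.88%) was higher, shares below the 19.3% and 14.0% of all genes. Tnks, which marks Axin for degradation, fell by 0.55 on the log2 scale, and of the Dishevelled relay proteins Dvl3 fell by 0.40 and Dvl1 rose by 0.30. Ctnnb1, which encodes beta-catenin itself, differed by 0.04 (adjusted p = 0.716). Among 13 genes listed as nuclear cofactors 4 were lower and 2 were higher. The beta-catenin coactivators Pygo1 and Bcl9l fell by 0.78 and 0.65. Ctnnd1, a catenin of cell junctions that was counted in this list, fell by 0.42. Of 11 frequently used target genes Tnfrsf19 alone passed, at -0.29 (adjusted p = 0.0464), and it did not pass without any one of WT replicates 1 to 4 or labelled replicates 1, 3 and 4 (up to 0.120) or under RLE scaling (0.0541), with no low-count filter (0.0560) or with only genes of at least 50 mean counts (0.0514). Neither of the ligand secretion genes Porcn and Wls nor of the receptor turnover genes Znrf3 and Rnf43 passed.

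The make-up of the tissue, as read from marker genes, differed between the same mice. Over all genes tested, for comparison, 14.0% were higher and 19.3% lower. The panel of 8 tooth-forming cell markers (odontoblasts and ameloblasts) was mostly ameloblast genes: Dspp, Amelx, Ambn, Enam, Amtn, Odam, Klk4 and Mmp20. Of these 8 markers 5 were higher. The summed level of the panel was 12172 to 31390 CPM in WT and 34465 to 57617 CPM in the labelled mice, without overlap. WT replicate 5 had the lowest sum of the 9 mice and labelled replicate 4 the highest. Of 8 fibroblast and periodontal ligament markers 6 were lower, and their sum was 22717 to 36218 CPM in WT and 10379 to 14962 CPM in the labelled mice, without overlap. Labelled replicate 4 had the lowest of these sums and WT replicate 5 the highest.

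Some of the other panels also moved, read beside the same 14.0% higher and 19.3% lower of all genes tested. Of 12 skeletal muscle markers 6 were higher, with sums of 8878 to 20792 CPM in WT and 21028 to 36484 CPM in the labelled mice, while all 11 myeloid, all 9 tested erythroid and all 8 mitotic markers were lower without overlap of their sums. Of 10 osteoblast markers 4 were lower, but the sums overlapped at 45629 to 66350 CPM in WT and 42742 to 52903 CPM in the labelled mice. Of 16 tested keratinized epithelium markers 11 were lower and 1 was higher, with sums of 4384 to 12048 CPM in WT and 5084 to 6354 CPM in the labelled mice. Lower markers numbered 8 of 9 for B lineage and 2 of 8 for T lineage. They numbered 2 of 5 for osteocytes, 1 of 6 tested for chondrocytes and 1 of 8 for endothelium. No marker of these lists was higher. The sums did not overlap for the B lineage, but they overlapped for the T-lineage, osteocyte, chondrocyte and endothelial panels. No marker of these panels was at 0 in all mice. The part of these tissue differences in the Wnt results was not tested.

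**Figure D5:**
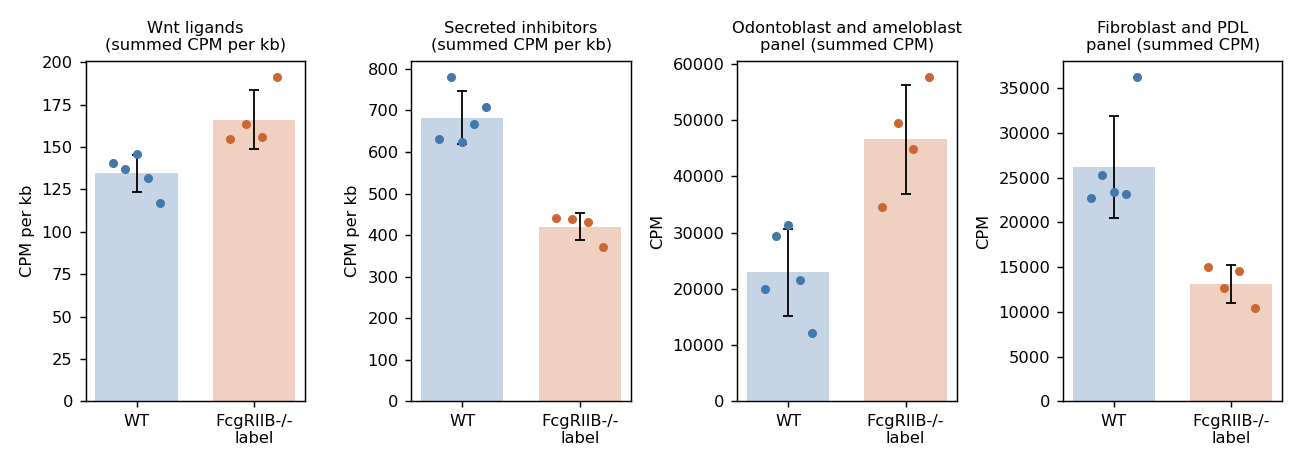
Summed level per mouse of the Wnt ligands and of the secreted inhibitors (CPM per kb of exon) and of the tooth-forming and fibroblast marker panels (CPM), with bars for group means and error bars of 1 SD (5 WT and 4 labelled mice). The ligand and tooth-forming sums are higher, and the inhibitor and fibroblast sums lower, in every labelled mouse than in every WT mouse.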

How the data were processed

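The deposited table holds raw read counts per gene, which the authors obtained by trimming reads with Trim Galore, aligning them to mm10 with HISAT 02.1.0 and counting with featureCounts, from poly(A)-selected directional libraries. The strand setting of the counting is not given in the sources used here, so overlapping and antisense genes are uncertain. Of the count columns, 1 matched no sample and was not used. Groups came from the sample labels (5 WT, 4 labelled FcgRIIB-/-), and totals of 21453880 to 28991631 counts limit the precision of genes under a few CPM.

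Counts were tested over the whole table in R 4.3.3 with edgeR 4.0.16 (filterByExpr with a minimum count of 10, TMM scaling, quasi-likelihood F test, no covariate, Benjamini-Hochberg over 16329 genes, threshold 0.05), and Wnt rows were read from that fit. The authors' DESeq2 was an alternative (1.42.0), as were limma 3.58.1 (voom), RLE or total-count scaling, other filters and thresholds, a replicate block, and leaving out each mouse. SE is the absolute log2 difference over the root of F. CPM uses TMM library sizes, exon lengths came from the basic GENCODE annotation of GRCm38, and positions and promoters from RefSeq tables (GRCm38.p6). The fits were tested on simulated data in which 200 of 16329 genes changed by a log2 of 1. Of these, edgeR recovered 74.5%, DESeq2 80.0% and limma-voom 73.5%. False calls made up 5.70%, 14.9% and 5.16% of their calls. Far more genes were called in the real data, mostly with other sizes of change, so these rates need not hold there. Within each group all pairs of libraries differed by more than sampling noise.

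Values per mouse are given for each of the 54 genes past the threshold and for Wnt3a, Notum, Lrp5, Lrp6, Axin2, Lef1 and Tcf7, and up to 3 further pathway genes per role are named by size of change; Ctnnb1 and the genes of roles with no call were added after their values were seen. The Wnt genes and all lists were chosen with earlier results of these data known.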

Additional observations from a re-analysis of the deposited data

Results flagged for a closer look

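A mouse far from the rest of its group, by the gap to its nearest neighbour over the group's range, was found in 9 of 98 combinations of gene and group. Chance would give about 1 in 20 if the combinations were independent. They share the same 9 mice, so no conclusion is drawn from the number of flags. WT replicate 5 accounted for 5 of the 9 flags, with 20.8 CPM of Wnt6 (other WT mice 34.5 to 38.8), 3.75 of Wnt7a (8.33 to 9.68), 34.6 of Fzd2 (43.6 to 47.1), 35.5 of Dkk1 (7.30 to 9.58) and 361 of Dkk3 (280 to 298). The Wnt6, Wnt7a and Dkk3 calls held without that mouse. WT replicate 2 stood apart with 9.55 CPM of Wnt2b (3.95 to 5.31) and 38.3 CPM of Fcgr2b (17.0 to 23.1). Labelled replicate 4 stood apart with 68.6 CPM of Wnt10b (48.4 to 49.8) and 32.1 CPM of Fcgr2b (26.0 to 26.6).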

How the results depend on the processing

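Of the 21 called Wnt genes, 16 kept their direction and call in every one of 16 other fits. The counts of 8 higher and 13 lower Wnt genes ran from 7 to 9 and from 10 to 12 with 1 mouse left out, from 7 to 9 and from 10 to 15 in the other fits, fell to 6 and 7 at an adjusted p under 0.01, and to 1 and 2 at an absolute log2 difference of at least 1. Over the further pathway genes, 4 higher became 2 with total counts only, with no filter and with the replicate block. The 4 became 1 at 0.01, 0 at the fold limit and 2 to 5 with 1 mouse left out. The 17 lower became 9 at 0.01, 3 at the fold limit and 12 to 17 with 1 mouse left out. Over all genes, 2289 higher became 1309 with total counts only, 869 at 0.01 and 181 at the fold limit, and 3144 lower became 1763 at 0.01 and 1069 at the fold limit. With 1 mouse left out, 1781 to 2292 of all genes were higher and 2521 to 2771 lower, so lower calls were fewer there too. The cause of these changes beyond the stricter limits was not tested.

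The numbers shared by the mice of both groups did not pair them: correlations of same-numbered deviations ran from -0.11 to 0.10, and no mouse correlated best with its own number. The replicate block, which drops WT replicate 5 from the comparison for want of a partner, called 8 Wnt genes higher and 10 lower, and gave log2 differences of -0.053 for Fzd5, -0.077 for Lgr6, 0.038 for Wnt7b, 0.32 for Dkk1, 0.024 for Fzd9 and -0.023 for Wnt11, each with its sign turned and none called. Lrp6, Wnt5b, Wnt16 and Rspo3 missed the threshold in that fit and Rspo4 passed it.

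Other turns of sign were also among uncalled genes. With total counts only, they were Fzd5 (-0.070), Lgr6 (-0.068), Axin2 (-0.033), Nkd2 (-0.028) and Wnt11 (-0.075), and with no filter Wnt11 (-0.0031). With 1 mouse left out, log2 differences ran from -0.13 to 0.0047 for Fzd7, -0.040 to 0.066 for Fzd5, -0.058 to 0.11 for Lgr6, -0.018 to 0.11 for Axin2, -0.53 to 0.10 for Sfrp4, -0.14 to 0.014 for Wnt5a, -0.25 to 0.030 for Wnt7b, -0.50 to 0.37 for Dkk1, -0.23 to 0.027 for Lef1, -0.22 to 0.063 for Fzd9 and -0.016 to 0.044 for Wnt11. Fcgr2b ran from 0.13 to 0.46 and passed the threshold without WT replicate 2. Genes under a few CPM, such as Wnt8b, Lgr5 and Rspo3, rest on the fewest reads.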
